A study of Mus musculus with 7 samples.

Results

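The Arc gene was examined with all Fos peaks that lie within 100 kb of it. On the assembly GRCm38.p6 the gene spans chr15:74669081-74672570, a length of 3490 bp (gene ID 11838). Peaks were taken from each of 6 peak lists where they came within 100 kb of this span, and peaks that overlapped by at least 1 bp were merged into regions. This gave 33 of the 68873 merged regions of the series. The 6 lists contributed 6, 34 and 15 peaks for kainic acid replicates 1, 2 and 3, and 0, 1 and 0 peaks for saline replicates 1, 2 and 3.

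Arc (activity-regulated cytoskeleton-associated protein) is an immediate early gene: neurons transcribe it within minutes of strong synaptic activity, without first making new protein. Its protein acts at excitatory synapses, where it promotes the endocytosis of AMPA-type glutamate receptors, and it is related to the Gag proteins of retrotransposons and forms capsid-like particles. Fos, itself the product of an immediate early gene, pairs with Jun proteins to form AP-1, a factor known for binding enhancers. Known control of Arc includes its promoter and the synaptic activity-responsive element, a distal enhancer upstream of the gene that binds CREB, MEF2 and SRF. No coordinates of that element were at hand, so no peak was assigned to it. Arc is known to be transcribed toward lower coordinates on this assembly, so its promoter is at the higher-coordinate end of the span. Positions below are in kb from that end. Positive values lie upstream of Arc, and negative values lie on the gene body or beyond its far end.

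The libraries came from the hippocampus of wild-type C57BL/6J mice aged 2 months, immunoprecipitated with an antibody against Fos. The saline group, given PBS, has 3 libraries. The kainic acid group also has 3, from mice given kainic acid, a glutamate receptor agonist that causes seizures, in 2 intraperitoneal injections of 10 mg/kg with 30 min between them. Mice that showed level 4 seizures were killed 1 hour after the first injection, so the group was selected on its seizures. The labels name 1 input library, which has no peak list. They do not say whether libraries came from separate animals, so a p-value measures only the spread between these libraries. The tissue holds many cell types, and binding in more cells cannot be told apart from stronger binding per cell. Peak lists hold no expression values, so the tissue label could not be set against marker genes.

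The lists differ greatly in length. They hold 15009, 63197 and 29650 peaks with kainic acid and 7, 3277 and 2 peaks with saline. Read totals were not given, and a region missing from a list is one that was not called there. The reads stacked over a summit (the pileup) and the background could be solved from the deposited fold and p-value for all 111142 of 111142 peaks. The lowest common background, taken as the mean coverage of a library, was 3.17, 2.71 and 4.03 reads in kainic acid replicates 1, 2 and 3 and 2.25 reads in saline replicate 2.

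The first comparison asks whether more Fos peaks were called around Arc after kainic acid. Every kainic acid library had at least 6 peaks within 100 kb, and no saline library had more than 1. Kainic acid libraries had 18.3 ± 14.3 such peaks (mean ± SD, n = 3), whereas saline libraries had 0.333 ± 0.577 (n = 3). On the log10(number + 1) scale the difference was 1.10, with 1.20 ± 0.350 (SD) against 0.100 ± 0.174 (SD). The groups did not overlap. A two-sided exact permutation test over the 20 assignments returned p = 0.1, and groups of this size cannot give a lower one.

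This difference at Arc has to be read beside the lengths of the lists. Peaks near Arc made up 0.0400% of the list in kainic acid replicate 1 (95% Clopper-Pearson interval 0.0147 to 0.0870), 0.0538% in replicate 2 (0.0373 to 0.0752) and 0.0506% in replicate 3 (0.0283 to 0.0834). In saline replicate 2 the share was 0.0305% (0.000773 to 0.170), and its interval holds all 3 kainic acid shares. At the mean kainic acid share of 0.0481% ± 0.00723 (SD, n = 3), the list of saline replicate 2 would hold 1.58 peaks near Arc and that of saline replicate 1 would hold 0.00337. The intervals cover counting error only. Lists as short as those of saline replicates 1 and 3 could hardly hold a peak near Arc at that share. A share of peaks near Arc different from that of the kainic acid lists was not detectable in saline replicate 2.

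**Figure D1:**
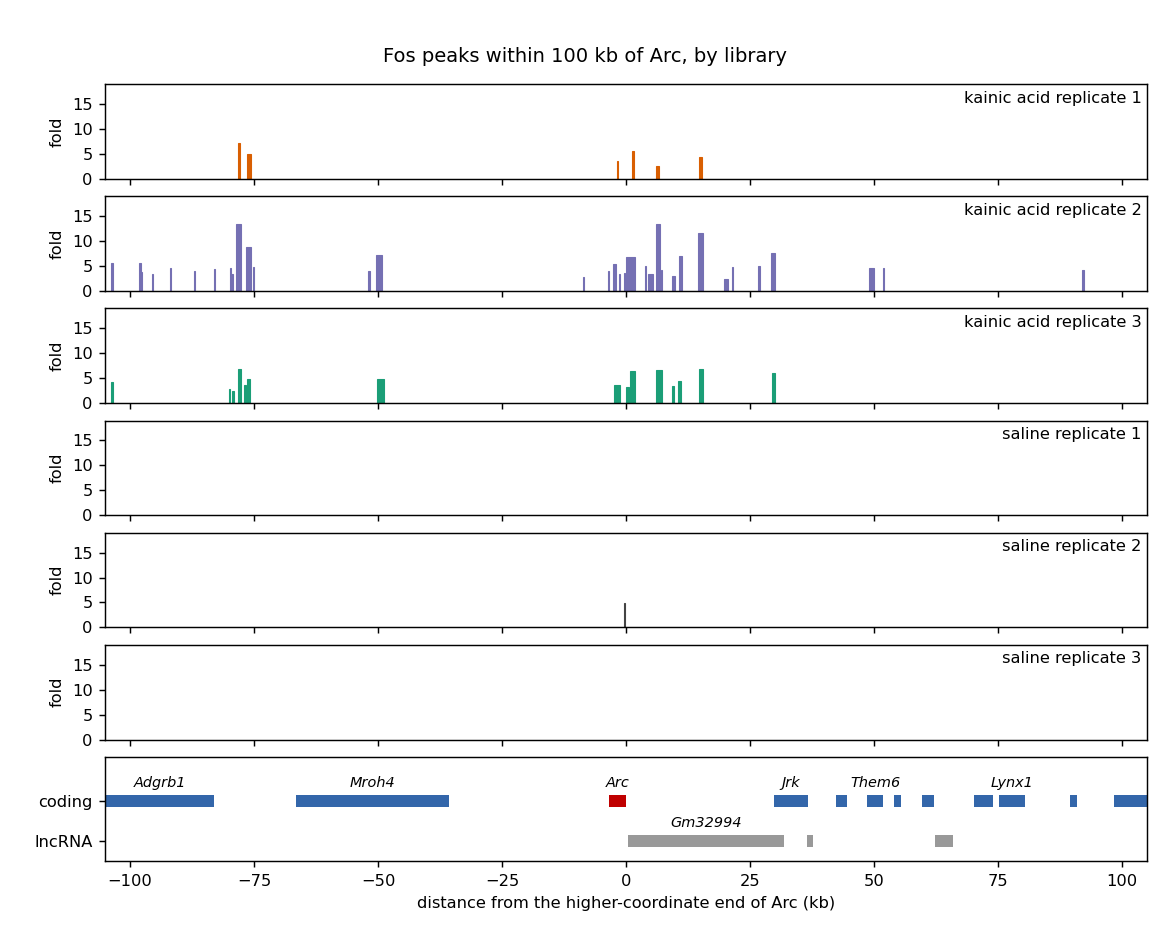
Peaks of the 6 libraries within 100 kb of Arc; the x axis is the distance from the higher-coordinate end of Arc in kb, each bar spans a peak, and its height is the authors' fold over local background, which is not scaled between libraries. Kainic acid peaks stand in groups near −78 kb, on Arc and up to +30 kb, and the single saline peak is on Arc.

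Of the 33 regions, all held a kainic acid peak. In at least 2 kainic acid lists there were 13, which is 39.4% (22.9 to 57.9), against 40.3% of all merged regions with a kainic acid peak in the series. All 3 lists held 6 of them, 18.2% (6.98 to 35.5), against 17.9% in the series. Replicate support at Arc was thus close to the background of the series. A further 19 regions were called in replicate 2 only, 1 in replicate 3 only and 0 in replicate 1 only. All 6 peaks of replicate 1 and 14 of the 15 peaks of replicate 3 lay in the 13 supported regions, as did 15 of the 34 peaks of replicate 2. The number of supported regions rests on the longer lists: without replicate 2 it was 6, and without replicate 3 it was 5. None of the 13 overlapped a saline peak (100%, 75.3 to 100), where the share over the series was 98.0%. The intervals of these region shares treat neighbouring regions as independent and leave out the spread between libraries. The supported region at the promoter end of Arc, from 74672568, begins close to the only saline peak, which ends at 74672418.

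The regions were unevenly spread over the window. The 20 kb upstream of Arc held 8 regions by their median summit, 5 of them in at least 2 kainic acid lists and 3 in all 3. The 20 kb beyond the far end of Arc held 1 region, called in replicate 2 only. Between 20 and 100 kb, the upstream flank held 6 regions, 1 of them supported, and the far flank held 15, 6 of them supported. Those 15 include the supported region at −104 kb, which reaches into the window although its median summit lies just past the edge. The longest stretch of the window without a supported region ran upstream from +30.1 kb to the edge, over 69.9 kb. Another of 46.3 kb ran from −48.9 to −2.60 kb, mostly beyond the far end of Arc, and ended inside the gene.

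On the gene itself, 2 supported regions touched the Arc span, the second only at its edge and through the peak of replicate 2. The first, chr15:74669970-74671434, lies wholly inside the gene and was in all 3 kainic acid lists. Its fold was 3.71, 5.43 and 3.66 in kainic acid replicates 1, 2 and 3, and its rank by fold was 11472 of 15009, 18553 of 63197 and 18695 of 29650. Peak widths there were 251, 514 and 1294 bp, and replicate 2 had another peak, of fold 3.50, in the same region. The share of the list with a higher fold was 76.4%, 29.4% and 63.0%, so replicate 2 placed the region higher than replicates 1 and 3 did. The summits were up to 568 bp apart, at −1.75, −2.32 and −2.31 kb. The peak of replicate 1 lies inside that of replicate 3 and overlaps neither peak of replicate 2. The gene table gives no exons, so exon and intron could not be told apart.

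The second region, chr15:74672568-74674382, meets the promoter end of Arc at its edge. It covers the near end of Gm32994, a long non-coding RNA gene whose span starts 0.443 kb upstream of Arc. It was also in all 3 lists, but only the peak of replicate 2 reached the Arc span, which ends at 74672570. The nearest peaks of replicates 3 and 1 in this region started upstream of the gene, at 74672616 and 74673691. The strongest peak of each list there had a fold of 5.66, 6.75 and 6.50 in replicates 1, 2 and 3 and ranked 3021, 10716 and 3156. The share of the list with a higher fold was 20.1%, 17.0% and 10.6%. The region holds more than 1 summit. Replicates 2 and 3 had a summit at +0.239 and +0.237 kb, with a pileup of 45 and 37 reads over a background of 5.81 and 10.4. Replicates 1 and 3 had one at +1.26 and +1.32 kb, with 24 and 34 reads over 3.42 and 4.38. Replicate 3 shows both summits as separate peaks, with a fold of 3.32 for the nearer and 6.50 for the farther. Replicate 2 called a single peak of 1815 bp over both, the widest of the window, and replicate 1 had no peak at the nearer summit.

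The single saline peak lies just inside the promoter end of Arc, in the region chr15:74672180-74672479. In saline replicate 2 it was 239 bp wide with its summit at −0.279 kb and a fold of 4.96, rank 503 of 3277. Kainic acid replicate 2 had a peak of 265 bp that overlapped it by 204 bp, with its summit 108 bp away and a fold of 3.63, rank 48262 of 63197. The pileup was 18 reads over a background of 2.83 in saline and 17 reads over 3.95 with kainic acid. Set against the mean coverage of each library, the pileup was 8.01 in saline replicate 2 and 6.28 in kainic acid replicate 2. The place was singled out because it holds the only saline peak of the window, so its saline value was selected. Kainic acid replicates 1 and 3 had no peak in this region. With 1 library on each side and no test, the values describe these peaks and do not compare the groups. Kainic acid replicate 3 had its nearest peak 197 bp away from the saline peak, in the supported promoter region above. Replicate 1 had its nearest peak 1181 bp away. On the gene as a whole, peaks covered 7.19%, 34.9% and 37.1% of the Arc span in kainic acid replicates 1, 2 and 3 and 6.85% in saline replicate 2.

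**Figure D2:**
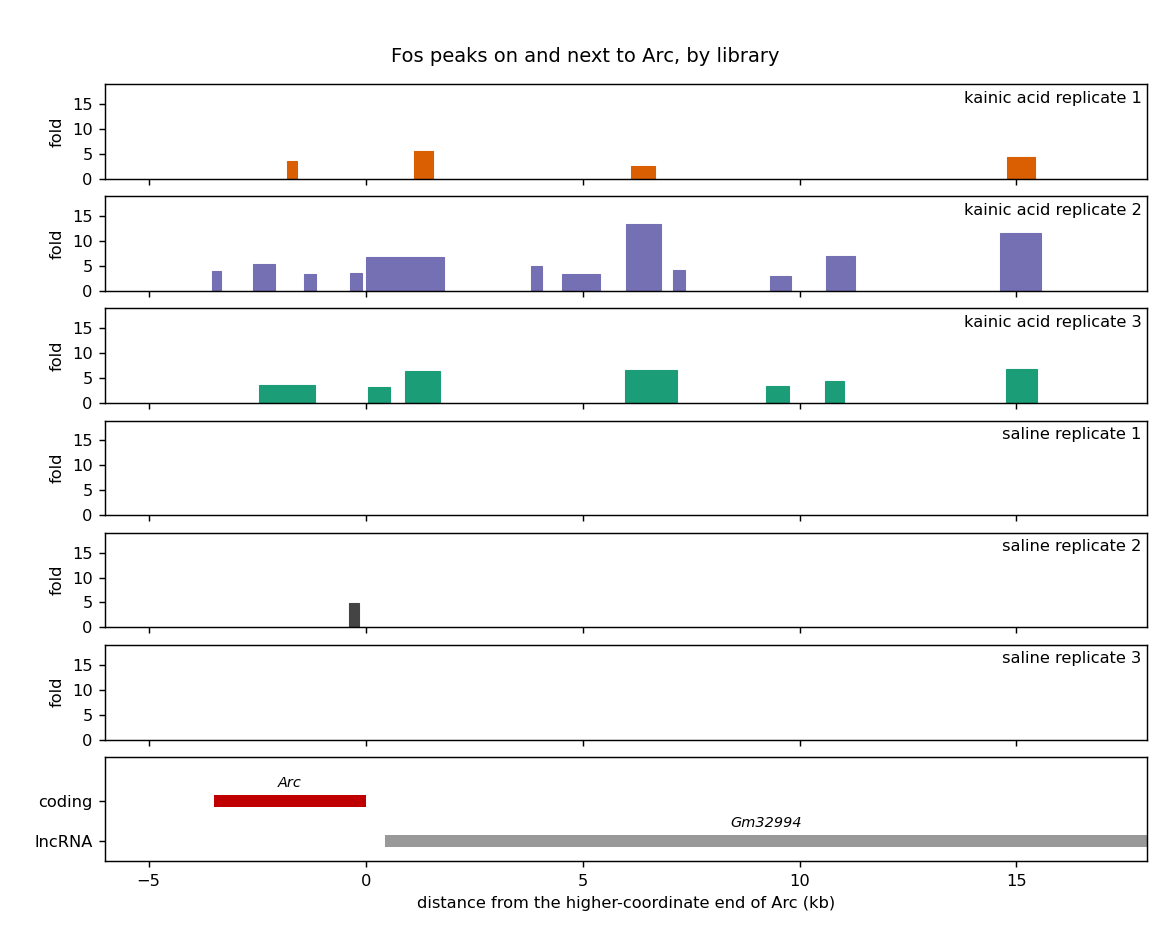
Peaks on Arc and upstream of it in each library; the x axis is the distance from the higher-coordinate end of Arc in kb, bars span the peaks, and their height is the authors' fold within that library. Kainic acid replicates 2 and 3 share summits near +0.24 kb, the saline replicate 2 peak is centred at −0.279 kb, and kainic acid peaks recur near +6.4 and +15 kb.

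Upstream of Arc, 6 supported regions lay on the span of Gm32994, the first of them the promoter region above. The region chr15:74678559-74679927, with its median summit at +6.45 kb, was in all 3 kainic acid lists and in no saline list. Its fold was 2.59, 13.4 and 6.74 in replicates 1, 2 and 3. In replicate 2 it ranked 1243 of 63197 and in replicate 3 2772 of 29650, among the upper 10% of both lists. In replicate 1 it ranked 14876 of 15009, near the bottom of the list. The pileup was 22, 56 and 42 reads over a background of 7.87, 3.27 and 5.38, so the background at this site was highest in replicate 1. Relative to mean coverage, the pileup was 6.95, 20.7 and 10.4. The 3 libraries all called this site but placed it very differently in their lists.

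The region chr15:74687192-74688129, at +15.0 kb, was in all 3 kainic acid lists as well. Its fold was 4.32, 11.6 and 6.95 in replicates 1, 2 and 3, with ranks of 7673, 2029 and 2401. Peak widths were 646, 938 and 710 bp, and the summits lay within 127 bp of each other. The pileup was 17, 42 and 34 reads over backgrounds of 3.17, 2.71 and 4.03, the lowest common background of each library. Replicate 1 again gave this site a lower place in its list than replicates 2 and 3 did.

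Between and beyond these sites, 3 regions were supported by replicates 2 and 3 alone. At +9.50 kb (chr15:74681794-74682381) the fold was 3.12 in replicate 2 and 3.46 in replicate 3, with ranks of 57742 and 21560. That low fold stood over a high background of 8.30 and 8.54 reads, and the pileups of 28 and 32 reads were larger than at the next site. At +10.8 kb (chr15:74683152-74683860) the fold was 7.02 and 4.37, with pileups of 25 and 21 reads. At +29.8 kb (chr15:74701875-74702669) the fold was 7.63 and 6.09, with ranks of 7820 and 3942 and pileups of 51 and 34 reads. There 12.4% and 13.3% of the 2 lists had a higher fold. This last region also touches Jrk, the mouse gene named for the jerky seizure phenotype, at the end of that gene that faces Arc. Replicate 1 had no peak at any of the 3.

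Beyond the far end of Arc, the strongest region of the whole window lay between genes. It is chr15:74594002-74594973, with its median summit at −78.1 kb, 4.54 kb from Adgrb1, which encodes an adhesion G protein-coupled receptor found at synapses. It was in all 3 kainic acid lists and in no saline list. Its fold was 7.19, 13.4 and 6.96 in replicates 1, 2 and 3, with ranks of 1190 of 15009, 1237 of 63197 and 2371 of 29650. It was the peak of highest fold near Arc in each of these 3 lists, but by little in replicates 2 and 3. The next fold was 13.36 against 13.39 in replicate 2, at +6.45 kb, and 6.95 against 6.96 in replicate 3, at +15.0 kb. In replicate 1 the next was 5.66 against 7.19, at +1.26 kb. At −78.1 kb the pileup was 38, 63 and 47 reads, and the summits lay within 95 bp of each other. The share of a list with a higher fold was 7.92%, 1.96% and 7.99%, a mean of 5.96% ± 3.47 (SD, n = 3).

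A second region in all 3 lists, chr15:74596026-74596939 at −76.3 kb, stood next to it, with a fold of 5.04, 8.79 and 4.77 in replicates 1, 2 and 3. Its ranks were 4515, 5087 and 8682, with 30.1%, 8.05% and 29.3% of the list at a higher fold. The peaks were 680, 914 and 705 bp wide. Around this pair, regions at −80.0 and −79.4 kb were supported by replicates 2 and 3 only, with folds of 4.72 and 2.84 at the first and 3.34 and 2.39 at the second. Those 2 sites were weak, and at the second 85.1% and 99.0% of the peaks in the lists of replicates 2 and 3 had a higher fold.

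Further supported regions of the far flank had peaks of replicates 2 and 3 only. One, chr15:74622174-74623702 at −49.4 kb, lies inside Mroh4, with a fold of 7.17 and 4.78, wide peaks of 1289 and 1286 bp, and summits within 16 bp. The other, chr15:74568629-74569173 at −104 kb, lies inside Adgrb1 with a fold of 5.63 and 4.31. It reaches into the window by its end only, with its nearest base 99.9 kb from Arc. Just outside the window, at 101 kb, a region of replicate 2 alone had a fold of 3.66. Slightly farther, at 102 kb from Arc and also inside Adgrb1, chr15:74566553-74567424 had a fold of 7.90, 21.8 and 12.8 in replicates 1, 2 and 3. Its ranks were 796, 146 and 143, with 5.30%, 0.229% and 0.479% of the list at a higher fold. That region was stronger than every region inside the window in each kainic acid list.

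The 20 remaining regions had a peak in 1 kainic acid list each, and the one with the saline peak, described above, is among them. Of the 19 called in replicate 2 only, 4 others came within 10 kb of Arc. They lay at −8.56, −3.46, +3.88 and +4.76 kb, with folds of 2.93, 4.01, 5.11 and 3.38. The one at −3.46 kb straddles the far end of the Arc span. The remaining regions of replicate 2 were at −98.0, −97.7, −95.3, −91.8, −87.0, −82.9, −75.1 and −51.8 kb, and at +19.9, +21.5, +26.9, +49.5, +52.0 and +92.2 kb. Their folds ran from 2.49 at +19.9 kb to 5.63 at −98.0 kb. The region of replicate 3 only was at −76.9 kb, with a fold of 3.56.

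The neighbouring genes shared these regions unequally. The window meets 15 genes, of which 12 are protein-coding. Of these 12, 4 had a supported region on their span, namely Adgrb1, Mroh4, Arc and Jrk, and Them6 had only 1 region of replicate 2. No region of any list touched the spans of Psca, Slurp1, Lypd2, Slurp2, Lynx1, Ly6d or Ly6g6g. These 7 genes belong to the Ly6 family of small proteins, and Lynx1 is known as a modulator of nicotinic acetylcholine receptors in neurons. The same 4 genes were the ones with a supported region within 10 kb. Over all 21887 protein-coding genes, 40.0% had one within 10 kb and 74.7% had one within 100 kb.

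Within the kainic acid lists, the 13 supported sites were ordered alike in replicates 2 and 3. Spearman's rho of the fold over these 13 sites was 0.907. Over the 6 sites that replicate 1 also held, rho was 0.200 between replicates 1 and 2 and 0.371 between replicates 1 and 3. These values describe sites of the same libraries and carry no test. Of the peaks near Arc, 3 of 6, 19 of 34 and 9 of 15 were in the upper part of their list by fold, with less than 50% of the list above them, so as a group they were of ordinary rank. Median peak widths near Arc were 484, 346 and 528 bp in replicates 1, 2 and 3, beside 365, 382 and 473 bp over the whole lists.

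**Figure D3:**
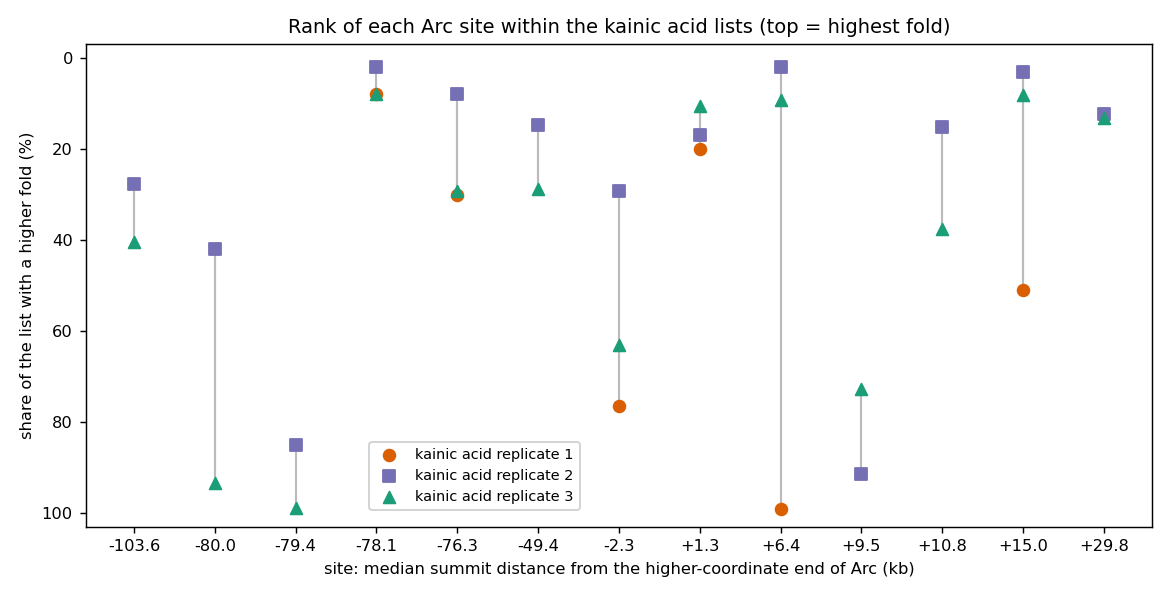
Share of each kainic acid list with a higher fold than the site, in percent, for the 13 sites in at least 2 lists; the x axis names each site by its median summit in kb from the higher-coordinate end of Arc, points are libraries and grey lines join them. The site at −78.1 kb is high in all 3 lists, whereas that at +6.4 kb is near the top in replicates 2 and 3 and near the bottom in replicate 1.

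The number of supported regions around Arc was high among genes. Arc had 13 within 100 kb, where the median of 21887 protein-coding genes was 2 and the middle 50% lay between 0 and 5. As many or more were found at 558 genes, 2.55% of all. For regions in all 3 lists Arc had 6, against a median of 1, and 3.70% of genes had as many. Within 10 kb Arc had 4, against a median of 0, and 7.36% of genes had as many. Long genes have longer windows. Among the 7926 genes of at most 10 kb, 0.568% had at least 13 regions within 100 kb and 0.479% had at least 4 within 10 kb. Without kainic acid replicate 3, Arc kept 5 regions and 7.57% of all genes had as many. The strength of the best peak was less unusual than the number. The best peak within 100 kb of Arc had 5.96% of a list above it on average, and 12.7% of genes had a value as low or lower, with a median of 35.8%. Neighbouring genes share windows, so genes are not independent and these shares carry no test.

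**Figure D4:**
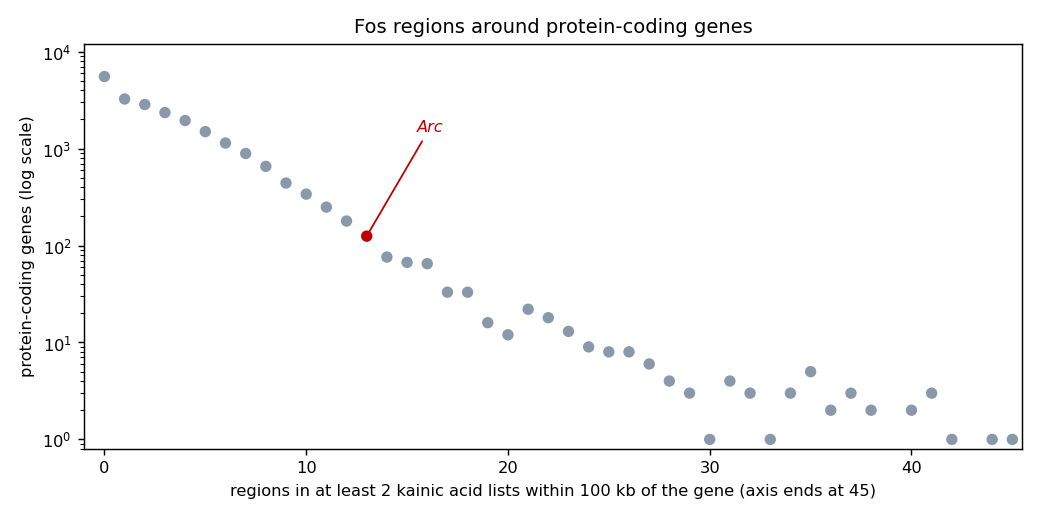
Number of protein-coding genes (log scale) by how many supported regions lie within 100 kb of the gene; the axis ends at 45 and the highest count, 97, is not shown. Arc, in red, is 1 of 125 genes with 13 regions, and 5538 genes have 0.

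Genes whose pattern was most like that of Arc were sought among the 21847 protein-coding genes over 1 Mb away. Likeness was the Euclidean distance over 8 measures, each divided by its SD over genes: the log2(number of peaks + 1) within 100 kb in 5 lists and the log10 place of the best peak in the 3 kainic acid lists. The nearest was Ets2, which encodes an ETS-family transcription factor, at a distance of 0.473, where the median gene was at 3.90. The nearest of so many genes lies far below the median by selection, so this distance is a description only. Ets2 had 7, 27 and 14 peaks in kainic acid replicates 1, 2 and 3 and 1 in saline replicate 2, counts that entered the distance. Next came Mtmr12, Zfp536, Zfr and Ywhaz, at 0.532, 0.543, 0.555 and 0.586. Mtmr12 and Zfr are neighbours whose windows overlap, and both have the same best peaks.

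Genes whose products act with Arc or on it were taken from a list of 22. A region in at least 2 kainic acid lists lay within 10 kb of 19 of them, which is to be read beside the 40.0% of all protein-coding genes. These genes are longer, with a median span of 82.5 kb against 17.2 kb, and the part of length in this count was not tested. All 4 genes of endocytic proteins that bind Arc had a region, from 1 at Sh3gl1, an endophilin, to 3 at Dnm2, which encodes dynamin 2. The 4 genes of AMPA receptor subunits and their partners also did, with 37 at Gria1, 10 at Gria2, 2 at Dlg4 and 1 at Cacng2. Gria1 and Gria2 encode the receptor subunits whose uptake Arc promotes, and Dlg4 encodes the scaffold PSD-95.

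Among the 6 other Arc-binding proteins, 4 genes had a region. These were Grin2b with 35, Grin2a with 32, Wasf1 with 8 and Camk2b with 6. Iqsec2 had none, although replicate 2 alone had 2 peaks within 10 kb of it. Both genes that the list enters as ubiquitin ligases had one, with 3 regions at Rnf216 and 2 at Ube3a. Of the 6 transcription factors that act on the Arc gene, 5 had a region, with 9 at Mef2c, 6 at Mef2d, 3 at Egr1, 2 at Creb1 and 1 at Mef2a. Srf, the factor that binds CArG boxes, had none in at least 2 lists, with 4 peaks in kainic acid replicate 2 and 2 peaks in saline replicate 2. Of the 22 genes, 10 had a peak of saline replicate 2 within 10 kb, as Arc did, and 17.0% of all protein-coding genes had one. The greater length of the 22 genes stands beside this count too.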

How the data were processed

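Fos ChIP-seq was compared between hippocampus after saline and after kainic acid. Per the submitters' processing notes, reads were trimmed with Trim Galore 0.6.4, aligned with Bowtie2 2.3.4.3 to mm10, and MACS2 was used. Peak names refer to a mapping quality filter of 30. The cutoff and control are not given in the sources used here. The 6 deposited lists have 1 library each. The authors' deposited fold gives summit over local background as a linear ratio. Each deposited −log10 p or −log10 q likewise refers to a single library, and the deposited score is 10 times the −log10 q, rounded down. None is scaled between libraries, so they rank or describe peaks within a list.

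Peaks and genes were joined with Python 3.11.15, numpy 2.4.6 and scipy 1.17.1, and gene spans came from the RefSeq table of GRCm38.p6, the assembly of mm10. A region is supported when at least 2 kainic acid lists have a peak in it. Rank 1 is the highest fold of a list. Where a list had several peaks in a region, the one of highest fold is given. The pileup k and background λ solve fold = (k + 1)/(λ + 1) where p is the upper Poisson tail beyond k. The tolerance was 0.001 in −log10 p, widened in proportion for large values. This is an inferred model. The code was tested on simulated data. Peak counts were compared as log10(n + 1) by an exact permutation test. Sites were given singly where they were supported, had a saline peak or came within 10 kb of Arc. The values of 1 gene of the partner list are not reported here, though the list's counts include it. Members and lists were chosen with earlier results of these data known. The planned motif search was not run, since no sequence of the locus was used here. Of 9 planned likeness measures, 1 did not vary among genes and was left out.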

Additional observations from a re-analysis of the deposited data

How the results depend on the processing

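The difference in peak number near Arc had the same direction in each alternative that was run. It went from 0.719 within 10 kb to 1.26 within 200 kb, and from 0.924 to 1.27 with each library left out. For the length covered, another quantity, the log10 difference was 3.12. The saline lists are so short that these alternatives could hardly reverse the direction, which therefore says nothing particular to Arc. The p-value of the difference could not fall under 0.1 in any of them and says nothing about stability. The labels number the libraries 1 to 3 in both groups and tie no number to a common animal or day. Treating equal numbers as pairs (replicate block) left the difference at 1.10, and an exact permutation test by sign flips of the 3 pairs gave p = 0.25, its lowest possible value. Same-numbered libraries correlated at −0.165, −0.177 and −0.0491 in their deviations across regions, and saline replicate 2, with nearly all saline peaks, sets these values. The 13 supported regions became 6 with −log10 q of at least 10 and 6 when all 3 lists were required. They became 8 when the kainic acid lists were cut to equal length, 4, 8 and 27 within 10, 50 and 200 kb, and 5 to 13 with 1 kainic acid library left out. The share of supported regions without a saline peak was 100% in all settings, beside 98.0% over the series in the main setting. Settings that only removed peaks or lists, or narrowed the reach, could not lower it, so they say nothing about stability. The mean share of a list above the best peak, 5.96%, was 10.6% with equal numbers of peaks. It was 10.5%, 10.1% and 2.00% within 10, 50 and 200 kb, settings added after the data were seen, and 4.94% to 7.96% with 1 library left out. The share of genes with as many regions as Arc, 2.55%, was 7.36% and 4.40% within 10 and 50 kb. With settings added later it was 0.484% per Mb of window and 0.568% among genes of at most 10 kb, and it was 2.21% to 7.57% with 1 library left out. The cause was not tested. The 19 partner genes became 20 within 50 kb (62.7% of all genes), 15 when all 3 lists were required (23.9%) and 15 with −log10 q of at least 10 (19.6%). Of the 18 sites given singly, 11 were in at least 2 lists at a −log10 q limit of 5, and 6 at a limit of 10. Read totals were not given, so the part of depth in the short saline lists, of 7 and 2 peaks, was not tested.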
